A study of Mus musculus with 3 samples.

Results

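The regions described here are stretches of 2 to 5 kb of H3K4me3 chromatin in mouse pro-B cells that were called for a combined arginine and lysine mark but not for the arginine mark alone. Reads were moved 75 bp in the direction of the strand and counted in bins of 1 kb (genome build mm9). Bins with 25 or more H3K4me3 reads were joined across at most 1 uncalled bin. A region of 2 to 5 bins was taken when at least 1 bin held 16 or more reads of the combined mark and no bin held 15 or more reads of H3R2me2s. There were 1097 such combined-only regions, which was 9.86% of the 11131 H3K4me3 regions of 2 to 5 kb, out of 18461 H3K4me3 regions of any width. Of the others of that width, 8365 had both marks, 1235 had neither and 434 had H3R2me2s only. Across the 11131 regions the combined mark was called in 85% and H3R2me2s in 79%. The read levels of all 3 libraries chose the regions, so their levels are given as a description with no test.

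The study mapped 3 histone modification states by chromatin immunoprecipitation and sequencing (ChIP-seq), with 1 library per antibody and therefore no replicates. The libraries were H3R2me2s (symmetric dimethylation of arginine 2 of histone H3), H3R2me2sK4me3 (the same arginine mark together with trimethylation of lysine 4, called the combined mark here) and H3K4me3. All 3 came from the same kind of cell, Abelson-transformed pro-B cells of genotype RAG2-/-, with the strain written as C57BL/7 in the labels. Per the labels, the antibodies to H3R2me2s and to the combined mark were made by the submitting laboratory, and that to H3K4me3 was bought from Abcam. The labels name no clone or donor animal. The cell identity was not checked against B-lineage genes, because no gene positions on mm9 were used here. No input or IgG library was used here.

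H3K4me3 is laid down by the SET1 and MLL methyltransferase complexes around the starts of genes that are active or poised, and its level falls away over the neighbouring nucleosomes. Arginine 2 lies beside lysine 4 on the same histone tail. Asymmetric dimethylation of that arginine is known to hinder the lysine mark, whereas the symmetric form has been reported to occur together with it and to be bound by WDR5, a shared subunit of the MLL complexes. Pro-B cells stand at an early stage of the B lineage. RAG2 belongs to the enzyme that cuts and joins immunoglobulin gene segments, and the oncogene of the Abelson virus keeps such cells dividing in culture. The combined-mark antibody is named for both modifications, so it and the H3R2me2s antibody bear on the same arginine. Whether any of the antibodies also bound the other states was not analysed here.

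The libraries held 6923765 (H3R2me2s), 7128852 (combined mark) and 13898471 (H3K4me3) reads, and 2.64% to 6.20% of reads repeated a position and strand. Background, averaged over 2053993 bins beyond 5 kb of every called bin, was 2.35 reads per bin in the H3R2me2s library, 1.86 in that of the combined mark and 2.98 in that of H3K4me3. The calling limits stood at 6.37, 8.60 and 8.39 times background in that order of marks. H3R2me2s was therefore called at a lower multiple of its background than the combined mark. Intervals below are 95% intervals for counting error only, since reads after PCR are not independent molecules and no library was repeated.

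The combined-only regions carried a moderate H3K4me3 signal, a weaker combined mark and an H3R2me2s level that was low but above background. Per region, H3R2me2s had 7 reads at the lowest, 21 at the median and 59 at the highest. The combined mark had 17, 38 and 103 reads, and H3K4me3 had 51, 123 and 305. Regions with both marks had medians of 73, 159 and 385 reads for H3R2me2s, the combined mark and H3K4me3, and regions with neither mark had medians of 18, 19 and 77. The combined-only regions thus lay near the regions with neither mark in H3R2me2s and between the other classes in H3K4me3. As multiples of background, H3R2me2s stood at 3.85 (3.80 to 3.90) over the combined-only regions, 10.4 over regions with both marks and 3.49 over regions with neither. The combined mark stood at 8.83 (8.75 to 8.91), against 28.5 and 4.62 in the same other classes. H3K4me3 stood at 17.6 (17.5 to 17.7), against 41.7 and 12.02. The absence of a call was not an absence of H3R2me2s signal, since the mean level lay above background and below the limit of 6.37 times.

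**Figure D1:**
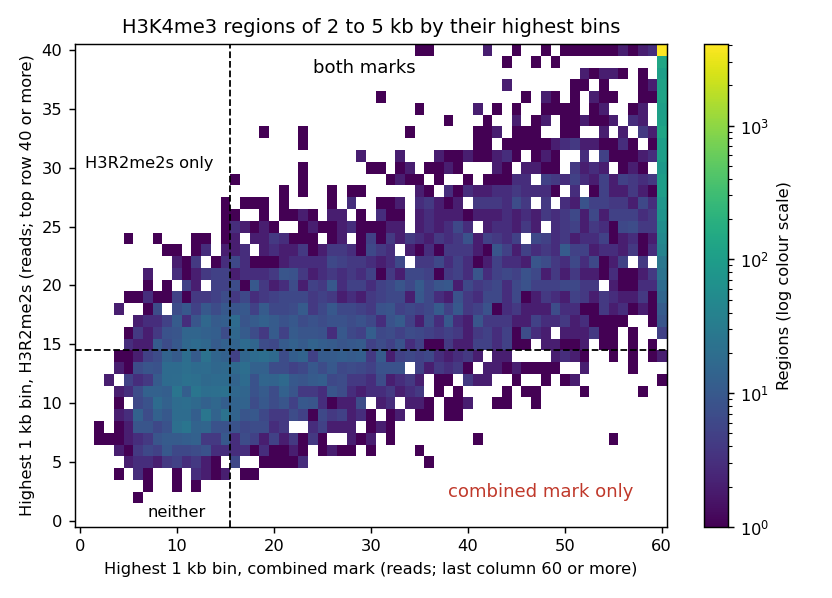
Each cell counts H3K4me3 regions of 2 to 5 kb by the reads in their highest combined-mark bin (x axis) and their highest H3R2me2s bin (y axis), on a logarithmic colour scale; dashed lines are the calling limits of 16 and 15 reads. The 1097 combined-only regions fill the lower right part and are densest next to both lines, in one continuous cloud with the 8365 regions that had both marks.

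In reads scaled to the library total (CPM, counts scaled to one common library size), H3R2me2s over the combined mark was 0.568 (0.559 to 0.577) in the combined-only regions, 0.475 (0.473 to 0.476) in regions with both marks and 0.983 in regions with neither. The combined-only regions therefore did not have a lower ratio than regions with both marks, although H3R2me2s was the mark they lacked by the rule. The combined mark over H3K4me3 was 0.611 (0.605 to 0.618), against 0.832 with both marks and 0.468 with neither. H3R2me2s over H3K4me3 was 0.347 (0.343 to 0.352), against 0.395 with both marks and 0.460 with neither. After background was subtracted from each mark, H3R2me2s over the combined mark came to 0.461 (0.452 to 0.470) in the combined-only regions, against 0.432 (0.430 to 0.433) with both marks and 0.869 with neither. Background in reads per bin was larger for H3R2me2s than for the combined mark, and it makes up more of a weak region than of a strong one. How far background accounts for the order of the CPM ratios was not tested. Single regions spread widely, with a ratio of H3R2me2s to the combined mark of 0.176 at the lowest, 0.575 at the median and 1.67 at the highest. H3R2me2s was at least 2-fold below the combined mark in CPM in 380 combined-only regions, or 34.6% (31.8 to 37.5), where the same held for 46.6% of all regions of 2 to 5 kb.

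Most of the combined-only regions lay close to a calling limit. The highest H3R2me2s bin held 4 reads at the lowest, 12 at the median and 14 at the highest. It held 12 to 14 reads in 622 regions, or 56.7%, and under 10 reads in 221 regions, or 20.1%. Among all regions of this width with a combined-mark call, the number of regions did not drop or jump at the H3R2me2s limit. There were 196 regions with a highest bin of 13 reads and 240 with 14, just inside the limit, and 237 with 15 and 226 with 16, just outside it. The highest combined-mark bin held 16 reads at the lowest, 22 at the median and 82 at the highest. On that side, 100 regions had a highest bin of 16 reads and 108 of 17, inside the limit, while 128 without an H3R2me2s call had 15 reads and lay outside it. The combined-only regions far from both limits, with no H3R2me2s bin of 10 reads and a combined-mark bin of 24 or more, numbered 68 (6.20%), and H3R2me2s over the combined mark in CPM was 0.366 (0.341 to 0.392). Those close to both limits, with 12 to 14 reads in the highest H3R2me2s bin and 16 to 19 in the highest combined-mark bin, numbered 176 (16.04%), with a ratio of 0.831 (0.799 to 0.865). These 2 values were set by where the regions lay in the same reads.

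**Figure D2:**
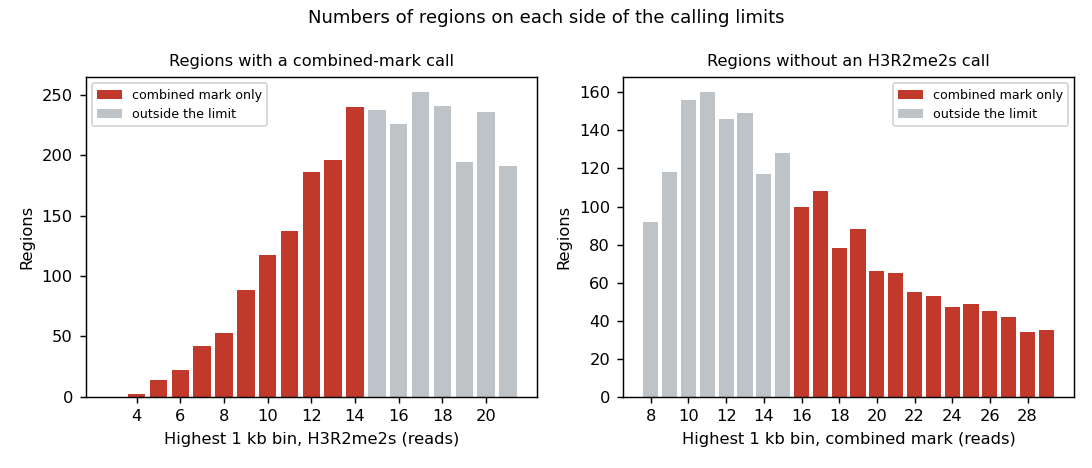
Bars count H3K4me3 regions of 2 to 5 kb by the reads in the highest H3R2me2s bin, among regions with a combined-mark call (left, to 21 reads), and by the reads in the highest combined-mark bin, among regions without an H3R2me2s call (right, from 8 to 29 reads). Red bars are combined-only and grey bars lie outside the limit; the count passes from 240 regions at 14 H3R2me2s reads to 237 at 15 without a step.

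An example on each side shows how small the differences at the limits were. Just inside the H3R2me2s limit, chr1:36318001-36322000 had H3R2me2s reads of 13, 13, 14 and 12 in its 4 bins, with 15, 20, 19 and 15 for the combined mark and 48, 87, 81 and 55 for H3K4me3. Its H3R2me2s was spread evenly over the region and came to 52 reads, more than in most of the combined-only regions. Just outside that limit, chr1:9844001-9846000 had 10 and 15 H3R2me2s reads, 10 and 18 of the combined mark and 30 and 61 of H3K4me3. It therefore counted as a region with both marks on 25 H3R2me2s reads in all. Just inside the combined-mark limit, chr1:109331001-109333000 had 6 and 5, 4 and 16, and 33 and 35 reads of H3R2me2s, the combined mark and H3K4me3. Just outside it, chr1:54804001-54806000 had 12 and 9, 8 and 15, and 50 and 32 reads. Each pair differed by 1 read in the bin that decided the class.

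The 5 combined-only regions with most reads of the combined mark were 3 to 5 kb wide, and their H3R2me2s bins are low by the rule. At chr4:151551001-151556000 there were 48 H3R2me2s, 103 combined-mark and 267 H3K4me3 reads. Bin by bin, these were 12, 14, 10, 5 and 7 (H3R2me2s), 23, 35, 30, 10 and 5 (combined mark), and 60, 71, 90, 20 and 26 (H3K4me3). All 3 marks were low in the last 2 bins, and the highest combined-mark bin lay beside the highest H3K4me3 bin. At chr4:153533001-153536000 the bins held 10, 11 and 13 H3R2me2s reads, 30, 27 and 46 combined-mark reads and 76, 63 and 86 H3K4me3 reads, with every mark highest in the last bin. At chr2:155297001-155301000 the combined mark had 14, 51, 23 and 10 reads and H3K4me3 39, 132, 60 and 44, both highest in the second bin, where H3R2me2s had 14 of its 39 reads. The other regions of this set were chr17:46277001-46282000, with 52, 100 and 305 reads of the 3 marks, and chr5:105843001-105847000, with 38, 97 and 295. Both were also among the 5 combined-only regions with most H3K4me3 reads, together with chr3:103575001-103580000 (59, 78 and 286 reads), chr4:3801001-3804000 (29, 66 and 283) and chr4:48136001-48139000 (27, 90 and 283). Among these, chr3:103575001-103580000 had the most H3R2me2s, at 14 reads in each of 2 of its 5 bins.

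The combined-only regions with the least H3R2me2s for their combined mark were all 2 kb wide. The lowest by the upper bound of its interval was chr13:96730001-96732000, where the bins held 6 and 11 H3R2me2s reads, 44 and 37 combined-mark reads and 99 and 119 H3K4me3 reads. Its ratio in CPM was 0.216 (0.120 to 0.368), and its H3K4me3 level of 36.6 times background was near the 41.7 of regions with both marks. Next came a pair on chromosome X. At chrX:150784001-150786000 there were 1 and 6 H3R2me2s reads, 6 and 35 combined-mark reads and 28 and 92 H3K4me3 reads, a ratio of 0.176 (0.0665 to 0.396). At chrX:149931001-149933000 there were 7 and 7, 9 and 55, and 32 and 88 reads, a ratio of 0.225 (0.117 to 0.406). In that region the combined mark was concentrated in the second bin with H3K4me3, while H3R2me2s was equal in both bins. Then followed chr1:137663001-137665000 with 18, 77 and 145 reads (ratio 0.241) and chr5:69982001-69984000 with 23, 92 and 167 reads (ratio 0.257). These 5 are the extremes of 1097 by that bound, so their low ratios follow from the choice.

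At the other end were the 5 regions with the highest ratio by the lower bound of its interval. Their combined mark stood at 3.90 to 5.59 times background, against a class median of 8.60. Their H3R2me2s stood at 4.67 to 5.10 times, against a median of 3.82. Both marks thus differed from the class, and the rule held every H3R2me2s bin to 14 reads or fewer. The highest ratio was at chr10:7784001-7788000, where the 4 bins held 10, 12, 13 and 12 H3R2me2s reads, 4, 5, 16 and 4 combined-mark reads and 33, 48, 47 and 28 H3K4me3 reads. Its ratio was 1.67 (1.03 to 2.75), and a single bin at the limit gave the combined-mark call. At chr11:30087001-30091000 the combined mark had 17, 5, 2 and 8 reads against 13, 9, 14 and 11 for H3R2me2s, a ratio of 1.51 (0.945 to 2.45). At chr9:11644001-11649000 the ratio was 1.17 and at chr3:53792001-53795000 it was 1.31, each with 1 combined-mark bin at or over the limit. The remaining region of this set had a ratio of 1.28. The weakest combined-only region in H3K4me3 was chr3:10342001-10344000, with 5 and 4 H3R2me2s reads, 7 and 16 combined-mark reads and 26 and 25 H3K4me3 reads. The other 4 of the weakest 5 had 53 to 56 H3K4me3 reads, near the 50 that a region of 2 called bins must hold.

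Narrow regions made up most of the combined-only class. Of 3555 H3K4me3 regions of 2 kb, 703 were combined-only, or 19.8% (18.5 to 21.1). The share was 7.98% among 3384 regions of 3 kb, 3.61% among 2634 of 4 kb and 1.86% among 1558 of 5 kb. A wider region has more bins in which an H3R2me2s call can fall, and its part in this order was not tested. Combined-only regions of 2 kb were 64.1% of the class. Within it the combined mark stood at 9.55 times background in regions of 2 kb and 7.08 times in those of 5 kb, and H3K4me3 at 18.6 and 15.0 times. H3R2me2s stood at 3.95, 3.79, 3.64 and 3.77 times background from 2 to 5 kb. The combined mark was called in 1 bin in 817 of the 1097 regions (74.5%), in 2 bins in 256 and in 3 bins in 24.

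The class was also bound to a range of H3K4me3 level. By the reads in the highest H3K4me3 bin, 7.34% of regions with 25 to 39 reads were combined-only, 25.9% with 40 to 59, 38.1% with 60 to 79, 25.5% with 80 to 109 and 1.13% with 110 or more. Below that range most regions had neither mark, at 74.97% of those with 25 to 39 reads. Above it nearly all had both, at 98.9% of those with 110 reads or more. Set beside regions with both marks in the same classes of H3K4me3 reads per region, the combined-only regions had the lower ratio of H3R2me2s to the combined mark in all but the top class. It was 0.568 against 1.13 at 50 to 74 H3K4me3 reads, and 0.546 against 0.465 at 200 or more. Weighted to the combined-only regions' H3K4me3 reads, regions with both marks had a ratio of 0.675, and 0.568 was 0.841 of it. Against all other regions of 2 to 5 kb, whose pooled ratio was 0.489, the same 0.568 was 1.16 of it. These 2 values differ in the class compared as well as in the matching. Without matching, regions with both marks had a ratio of 0.475, so the combined-only ratio was above theirs unmatched and below theirs at matched H3K4me3. All of these ratios came from reads that had chosen the classes. The rule caps H3R2me2s in the combined-only regions and asks for it in the others, so a lower ratio at a given H3K4me3 level follows in part from the choice.

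To measure levels with reads that had not chosen the regions, each library was split at random into parts A and B of nearly equal size. Regions were chosen in one part with limits of 8, 8 and 13 reads for H3R2me2s, the combined mark and H3K4me3, and the other part was read out. Choosing in A gave 1292 combined-only regions and choosing in B gave 1320, and the same place could enter both. H3R2me2s in the combined-only regions was higher in the part that had not chosen them. It stood at 4.29 times background there, against 3.42 in the choosing part, and in the other direction at 4.22 against 3.46. The combined mark was lower outside the choosing part, at 8.10 against 8.67 times background and at 8.20 against 8.69. H3K4me3 differed less, at 16.5 against 17.1 and at 16.3 against 17.0. In regions with both marks, H3R2me2s stood at 9.81 times background outside the choosing part and 9.89 in it.

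With both directions pooled and only reads that had not chosen the regions, H3R2me2s stood at 4.25 times background in combined-only regions (4.21 to 4.30), 9.80 in regions with both marks and 3.45 (3.41 to 3.50) in regions with neither. The combined mark stood at 8.15 (8.08 to 8.22), against 26.9 and 4.53, and H3K4me3 at 16.4, against 39.2 and 10.5. In CPM, H3R2me2s over the combined mark was 0.676 (0.667 to 0.685) in combined-only regions, 0.473 with both marks and 0.988 with neither. H3R2me2s in the combined-only regions was above that of regions with neither mark, but so was H3K4me3, and the difference was smaller at a given H3K4me3 level. Parts A and B come from the same libraries, so they do not stand in for another immunoprecipitation.

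The calls themselves were repeated in a minority of the regions. Of 1292 combined-only regions chosen in part A, 491 (35.3% to 40.7%) were combined-only again by the same limits in part B, and of 1320 chosen in part B, 515 (39.02%) were so in part A. H3R2me2s passed its limit in the other part in 45.4% and 44.6% of them, and the combined mark in 75.8% and 77.7%. By comparison, 91.8% and 91.9% of regions with both marks had both again. Of regions with neither mark, 22.8% and 23.7% passed the H3R2me2s limit in the other part. Of the H3R2me2s-only regions, 44.3% and 42.9% passed the H3R2me2s limit again, so that call was lost in more than it was kept. Regions with neither mark became combined-only in the other part in 19.6% and 20.7%, and regions with both marks in 6.12% and 5.90%. At the depth of these parts, the absence of an H3R2me2s call in the combined-only class and its presence in the H3R2me2s-only class were both often changed by which reads were drawn. Each part held fewer reads than the full libraries that chose the 1097 regions, so these rates do not give the repeatability of the full calls.

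At a given H3K4me3 level the classes lay closer together. By the highest H3K4me3 bin of the choosing part, H3R2me2s in the other part stood at 3.36, 3.75, 4.08, 4.52 and 5.46 times background in combined-only regions for 13 to 19, 20 to 29, 30 to 39, 40 to 54 and 55 or more reads. In regions with both marks the values were 4.63, 4.34, 4.74, 5.18 and 10.5. H3R2me2s was higher at higher H3K4me3 in the combined-only regions, and was below that of regions with both marks in each class. In regions with neither mark it stood at 3.20, 3.52, 3.81 and 4.27 times background in the first 4 classes, and 3 such regions fell in the fifth. The combined-only regions were close to these values. Their intervals overlapped those of regions with neither mark at 13 to 19 reads, with 3.36 (3.21 to 3.52) against 3.20 (3.13 to 3.27), and at 40 to 54 reads, with 4.52 (4.44 to 4.61) against 4.27 (3.99 to 4.57), and did not overlap in the 2 classes between. H3K4me3 in the other part was still higher in the combined-only regions within these classes, at 9.65 against 8.49 times background in the weakest and 18.5 against 16.1 in the fourth. The combined mark stood at 4.83, 6.08, 7.61, 9.31 and 12.5 times background in combined-only regions, against 4.94, 6.18, 8.21, 11.03 and 29.5 with both marks and, in the first 4 classes, 3.86, 4.69, 5.58 and 6.53 with neither. Set against both marks, in the 2 weakest classes the intervals overlapped, at 4.83 (4.63 to 5.05) against 4.94 (4.61 to 5.28) and at 6.08 (5.96 to 6.20) against 6.18 (6.02 to 6.33). H3K4me3 itself was lower in combined-only regions than in regions with both marks from 30 reads up, and the intervals did not overlap. It stood at 15.7 against 16.5 times background for 30 to 39 reads and at 18.5 against 20.5 for 40 to 54. In the strongest class it was 24.04 against 42.3. The level is therefore not fully matched from 30 reads up, and least so in the strongest class. In CPM, H3R2me2s over the combined mark in combined-only regions was 0.902, 0.799, 0.695, 0.630 and 0.564 over the 5 classes, against 1.22, 0.911, 0.748, 0.609 and 0.463 with both marks and, in the first 4, 1.07, 0.973, 0.886 and 0.847 with neither. It was below that of regions with both marks in the 3 weaker classes, where the intervals did not overlap, overlapped with it in the fourth and was above it in the strongest.

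**Figure D3:**
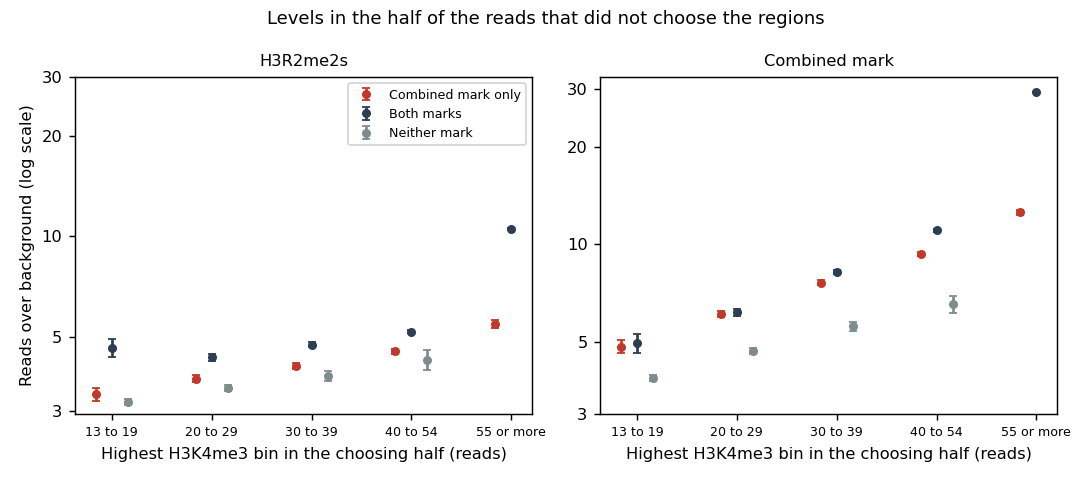
H3R2me2s (left) and the combined mark (right) as multiples of background on a logarithmic axis, in reads that had not chosen the regions, by class of the highest H3K4me3 bin; bars are 95% intervals for counting error and classes of under 20 regions are not drawn. H3R2me2s in combined-only regions (red) lies below that of regions with both marks (dark) in every class, from 3.36 against 4.63 to 5.46 against 10.5, and the combined mark of both classes nearly coincides at low H3K4me3.

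Across the combined-only regions, the combined mark varied with H3K4me3 more than H3R2me2s did. Spearman's rho of reads per bin was 0.374 between H3R2me2s and H3K4me3, 0.649 between the combined mark and H3K4me3, and 0.266 between H3R2me2s and the combined mark, over 1097 regions. In the 8365 regions with both marks the values were 0.912, 0.952 and 0.924, and in the 1235 with neither they were 0.231, 0.458 and 0.200. The rule leaves the combined-only regions a narrow range of H3R2me2s and few reads, whose part in these values was not tested. The regions of a class share their libraries and their mappability, so these are descriptions.

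The highest combined-mark bin was the highest H3K4me3 bin in 902 of 1078 combined-only regions without a tie, or 83.7% (81.3 to 85.8). The same share was 88.9% with both marks and 62.7% with neither. The highest H3R2me2s bin was the highest H3K4me3 bin in 661 of 973 combined-only regions, or 67.9% (64.9 to 70.9), against 84.0% with both marks and 53.6% with neither. These shares come from the reads that chose the regions and are a description, since the rule asked for a combined-mark bin of 16 or more and allowed no H3R2me2s bin over 14. The combined mark's own share was low in regions with neither mark, where the rule capped it too. In regions of 2 kb alone the shares were 86.7% for the combined mark and 73.6% for H3R2me2s. The centres of mass of H3R2me2s and the combined mark lay 131 bp apart at the median in combined-only regions, against 77.1 bp with both marks and 141 bp with neither. Those of the combined mark and H3K4me3 lay 76.9 bp apart, against 56.4 bp and 102 bp. A centre of mass is less exact with fewer reads, and the median H3R2me2s reads were 21, 73 and 18 in these 3 classes. The part of read number in these distances was not tested.

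The profile around the H3K4me3 summit was measured in separate reads. Regions and summits were chosen in one part of the reads and the profile was read from the other part, in 100 bp bins. In combined-only regions, the central 100 bp stood at 11.6 times background in H3R2me2s, 31.3 in the combined mark and 56.2 in H3K4me3. All 3 marks were therefore highest at the same place in the mean profile. Of the net signal within 2 kb of the summit, 48.4% (47.8 to 49.1) lay within 500 bp for H3R2me2s, 59.9% (59.4 to 60.4) for the combined mark and 57.6% (57.4 to 57.8) for H3K4me3. In regions with both marks the shares were 58.6%, 61.9% and 56.7%, and in regions with neither they were 40.999%, 49.01% and 50.9%. H3R2me2s was the least concentrated of the 3 marks in combined-only regions and in regions with neither mark. The combined mark and H3K4me3 in combined-only regions had shares near those of regions with both marks. A weak mark is most affected by the background taken. With the mean of uncalled bins 6 to 10 kb away in place of the genome-wide background, the shares in combined-only regions were 56.1% (55.2 to 57.0), 64.7% (64.1 to 65.2) and 60.6%, against 61.5%, 63.0% and 57.6% with both marks. The order of the marks was kept, and the difference between H3R2me2s and the combined mark shrank. In regions of 2 kb, the share of reads in the bin highest for H3K4me3 in the choosing part was also taken, with no background subtracted. In combined-only regions it was 57.7% in H3R2me2s, 63.3% in the combined mark and 62.8% in H3K4me3. With both marks it was 65.9%, 69.3% and 67.2%, and with neither 53.2%, 56.8% and 57.3%. By this measure H3R2me2s was lowest in each of these classes, so this was not particular to the combined-only regions.

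**Figure D4:**
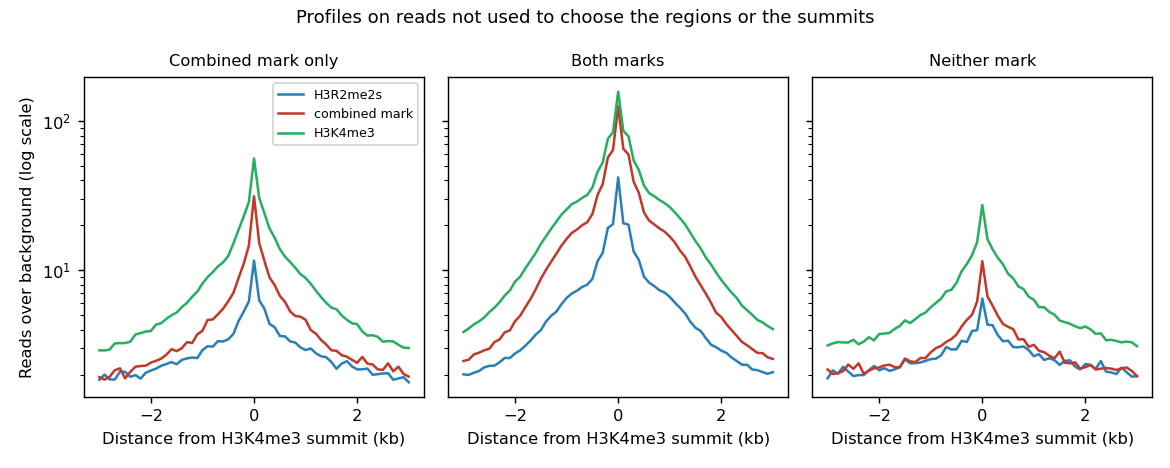
Mean read density as a multiple of background (logarithmic axis) in 100 bp bins to 3 kb on each side of the H3K4me3 summit, for combined-only regions (left), regions with both marks (middle) and regions with neither (right), with regions and summits chosen on separate reads. In combined-only regions the summit stands at 11.6 times background in blue (H3R2me2s), 31.3 in red (combined mark) and 56.2 in green (H3K4me3), and the red and blue lines approach each other beyond 2 kb.

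The surroundings of the combined-only regions lay above the genome-wide background in all 3 marks. Outside the region edge, the first uncalled bin stood at 2.23 times background in H3R2me2s, 2.44 in the combined mark and 4.06 in H3K4me3, against 2.27, 2.92 and 4.75 beside regions with both marks and 2.32, 2.44 and 4.03 beside regions with neither. The combined mark and H3K4me3 were thus lower there than beside regions with both marks and close to those beside regions with neither. Bins 6 to 10 kb away stood at 1.63, 1.62 and 1.93 times background, against 1.63, 1.64 and 1.92 with both marks and 1.77, 1.75 and 2.15 with neither. At that distance the combined-only regions were near regions with both marks and below regions with neither, whose intervals did not overlap theirs in any of the 3 marks. Against these local levels in place of the genome-wide one, H3R2me2s in the combined-only regions stood at 2.36, the combined mark at 5.46 and H3K4me3 at 9.12 times. Net H3R2me2s per net combined mark was then 0.389 (0.379 to 0.398) in combined-only regions, 0.412 (0.411 to 0.414) with both marks and 0.756 with neither. With the genome-wide background it had been higher in the combined-only regions than with both marks, at 0.461 against 0.432, so its order between these classes followed the background chosen. An H3R2me2s bin was called within 1 kb outside the edge of 16 combined-only regions (1.46%) and within 5 kb of 142 (12.9%), against 2.27% and 15.1% of regions with neither mark. Both of these classes were chosen to hold no H3R2me2s call. Regions with both marks hold one by the rule, and calls outside their edges were not counted apart. The shares therefore have no base over all H3K4me3 regions.

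Another H3K4me3 region lay within 5 kb of 252 combined-only regions, or 23.0% (20.5 to 25.6), against 18.8% (17.9 to 19.6) of regions with both marks and 30.7% (28.1 to 33.3) of regions with neither. The combined-only regions lay between the other classes in this. The median distance to the nearest H3K4me3 region was 15 kb, against 18 kb and 12 kb. Of the 252, the neighbour had more H3K4me3 reads in 128 (50.8%), against 33.9% with both marks and 63.1% with neither. Fragment length, read from the distance between strands, was 149 bp in the H3R2me2s library, 141 bp in the combined-mark library and 134 bp in the H3K4me3 library over combined-only regions, against 143, 140 and 135 bp with both marks. Reads repeating a position and strand were 4.03%, 2.04% and 5.15% of reads, against 6.02%, 4.30% and 12.2% in the stronger regions with both marks.

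Combined-only regions were found on every chromosome except Y, where 8 H3K4me3 regions of 2 to 5 kb were all of the class with both marks. On the others their share of regions of this width ran from 7.40% on chromosome 14 (5.01 to 10.5) to 13.3% on chromosome 12 (10.2 to 16.9), against 9.86% over the genome. These 2 intervals overlapped. Chromosome X had 40 combined-only regions of 330, or 12.1% (8.80 to 16.1).

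On chromosome X the combined-only regions had less H3R2me2s for their combined mark than on any autosome. The CPM ratio was 0.429 (0.394 to 0.468) on X, and on the 19 autosomes it ran from 0.486 on chromosome 4 (0.457 to 0.517) to 0.630 on chromosome 9, with a median of 0.582. The intervals of X and chromosome 4 overlapped, and those of the other 18 autosomes lay above that of X. H3R2me2s stood at 3.31 times the genome-wide background on X, below the 3.74 to 4.07 of the autosomes, and the combined mark at 10.04 times, within the 7.96 to 10.6 of the autosomes. H3K4me3 did not stand apart, at 17.6 times background on X and 16.3 to 19.8 on autosomes. In CPM, the combined mark over H3K4me3 was 0.695 (0.658 to 0.733) on X, above the 0.565 to 0.674 of the autosomes. H3R2me2s over H3K4me3 was 0.298 (0.276 to 0.322), below their 0.316 to 0.377. The interval of X overlapped those of chromosomes 4, 7, 8 and 17 in the first ratio. In the second it overlapped those of chromosomes 3, 4, 10, 16 and 19. With both marks, these ratios were 0.897 on X against 0.813 to 0.846, and 0.369 against 0.386 to 0.403. Background itself was lower on X, at 0.524 of the genome-wide value in H3R2me2s, 0.544 in the combined mark and 0.548 in H3K4me3. With each chromosome's own background subtracted, the ratio was 0.371 (0.335 to 0.407) on X and 0.388 to 0.516 on autosomes, and the interval of X overlapped those of chromosomes 4, 16, 17 and 19. In reads that had not chosen the regions, the ratio was 0.478 (0.443 to 0.516) on X, 0.647 (0.615 to 0.680) on chromosome 4 and 0.684 (0.675 to 0.694) over the autosomes. In those reads chromosome 4 thus lay nearer than X to the value over all autosomes, which includes chromosome 4. The other autosomes were not read out singly there, and background was not subtracted. Regions with both marks had the same order, with 0.412 (0.405 to 0.419) on X and 0.457 to 0.485 on autosomes, so the low ratio was not particular to the combined-only class. Chromosome X was chosen for this description after its values were seen.

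**Figure D5:**
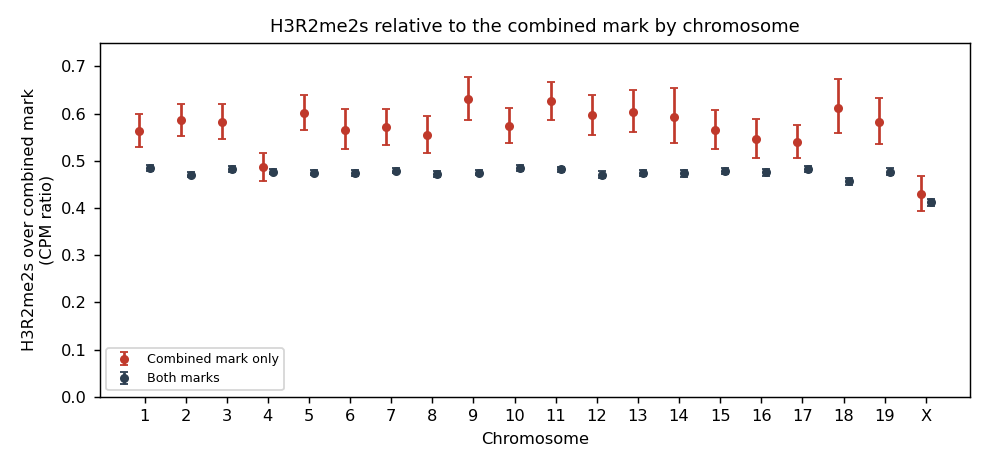
H3R2me2s over the combined mark (ratio of CPM values) by chromosome, with reads summed over combined-only regions (red) and over regions with both marks (dark); bars are exact 95% intervals for counting error. Combined-only regions lie between 0.486 and 0.630 on the autosomes and at 0.429 on X, and regions with both marks between 0.457 and 0.485 and at 0.412.

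The combined-only regions fell into 776 windows of 1 Mb, 550 of which held 1 of them, and no window held more than 8. The same counts over all regions of 2 to 5 kb were not taken. These numbers therefore do not show whether the combined-only regions were more or less scattered than the others. The richest was chromosome 4, 133000001 to 134000000, with 8 of 23 regions of 2 to 5 kb. Their H3R2me2s reads ran from 13 to 30, those of the combined mark from 28 to 66 and those of H3K4me3 from 84 to 170. In that window H3R2me2s over the combined mark was 0.460 (0.382 to 0.553) in the combined-only regions and 0.459 (0.426 to 0.495) in the 14 regions with both marks, given as a description because the same reads set the classes. Background there was 1.52, 1.39 and 1.57 times the genome-wide level for H3R2me2s, the combined mark and H3K4me3. Next came chromosome 17, 56000001 to 57000000, with 6 of 25 regions and a ratio of 0.680 (0.542 to 0.850), and chromosome 3, 52000001 to 53000000, with 5 of 13 regions and a ratio of 0.763 (0.620 to 0.937). These windows were named because they held the most combined-only regions.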

How the data were processed

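Per the labels' protocols, chromatin came from sonicated nuclei, PCR ran for 15 cycles, gel selection kept 100 to 500 bp, and the sequencer was a Genome Analyzer. The build was mm9, per the submitters' processing notes, with aligner and filters not given in the sources used here. Each line of the deposited files is 1 mapped read of 39 bases, so read counts per bin are raw counts that the authors had not scaled. Depth sets the precision, which intervals show for counting error only.

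Bins, limits and regions are as given above. Ratios have exact binomial intervals, shares exact Clopper-Pearson intervals and levels exact Poisson intervals. Intervals of net ratios and of shares of net profile signal came from error propagation of read counts. With 1 library per antibody no p-value was computed. Log2 ratios used a pseudocount of 0.5 CPM. Software was Python 3.11.15, numpy 2.4.6, pandas 2.3.3, scipy 1.17.1 and matplotlib 3.10.9. Region calling and halving of reads were tested on simulated data, in which all regions had the same width and levels. Class calls at the limits were not tested there.

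Named regions are the 5 with most combined-mark reads, the 5 with lowest and highest ratio of H3R2me2s to the combined mark ranked by the interval bound nearest the rest, the 5 with most and fewest H3K4me3 reads, and the first in genome order on each side of both limits. The regions and lists were chosen with earlier results of these data known. Chromosomes X and 4, the windows, the profiles on separate reads and their local background were chosen after seeing the data. Other settings tried were the read shift, the bin grid, joining, repeated reads, depth, stricter limits, chromosomes left out, background and pseudocount. Gene lists, gene names and sequences of the regions were not analysed here, since no mm9 genome or annotation was used.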

Additional observations from a re-analysis of the deposited data

How the results depend on the processing

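Under 14 settings 80 values were recomputed, of which 49 stayed inside their interval, 30 moved more and 1 turned round. In place of an interval, counts were held to within 1.5 times. The median log2 ratio was held to within the standard deviation of the log2 ratios over regions. With the bin grid moved by 500 bp, 462 of the 1097 regions (42.1%) were combined-only again, 235 became regions with both marks, 311 had another width and 76 had neither mark, although the count was 1068 and the CPM ratio of H3R2me2s to H3K4me3 was 0.355. Membership rested on the read shift less, with 900 kept with no shift and 892 with a shift of 150 bp, and 941 were kept at equal depth, where the combined mark over H3K4me3 was 0.605 and H3R2me2s over H3K4me3 0.341. Joining only adjacent bins put 32.5% within 5 kb of another region. With no H3R2me2s bin of 10 or more, 221 regions had ratios of 0.438 for H3R2me2s to the combined mark, 0.641 for the combined mark to H3K4me3 and 0.281 for H3R2me2s to H3K4me3, with a net ratio of 0.308. With a combined-mark bin of 24 or more, 484 regions had 0.481, 0.655, 0.315 and 0.385, the combined-mark and H3K4me3 maxima shared a bin in 89.3%, and 20.5% had a neighbour within 5 kb. With an H3K4me3 limit of 50 reads these were 351, 0.497, 0.579, 0.288, 0.406, 75.4% and 19.4%. Separate reads gave 0.676, 0.410 and a net ratio of 0.572, and local background a net ratio of 0.389. The value that turned round was the combined-only ratio over that of other regions, 1.16, which was 0.841 over regions with both marks at matched H3K4me3. The class compared changed together with the matching, and the same reads had chosen the classes. A pseudocount of 0.1 CPM put the median log2 ratio at -0.78 in place of -0.71. The causes were not tested. No paired analysis was possible because there was 1 library per antibody, which also leaves none to leave out. Depth limits the classes, since 1 read decided regions at a limit.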
